A study of Danio rerio with 4 samples.

Results

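The epicardial marker genes tcf21, tbx18, wt1a, wt1b, jam2b, lxn and adma were followed in injured zebrafish ventricles of ccn2a mutants and wild types. They were taken by symbol, 7 of 19875 genes in the table, and each symbol belonged to 1 gene. The mutant group was 2 libraries of ccn2a-/- ventricles and the control group 2 libraries of wild-type ventricles. Both were taken 4 days after cryoinjury (4 dpci in the labels), with atrium and bulbus arteriosus removed. The labels give neither the ccn2a lesion nor the age, the strain or the number of hearts behind a library, and the spread that p-values measure here is that between these libraries alone, which may be technical. Values behave as read counts that the authors divided by a size factor for each library (normalised counts), so library totals still differ.

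The epicardium is the mesothelial sheet that covers the heart. After injury to the zebrafish ventricle it becomes activated, proliferates and covers the wound, and it supplies matrix, growth factors and the precursors of fibroblasts and perivascular cells. Its usual markers comprise transcription factors that define the lineage and proteins of other kinds that its cells make, here an adhesion molecule, a peptidase inhibitor and a peptide hormone precursor. The question is how the level of each differs in mutants of ccn2a, whose product is secreted into the extracellular matrix.

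The first group of markers encodes transcription factors. It comprises the basic helix-loop-helix factor tcf21 (ENSDARG00000036869, chromosome 23, 31554269 to 31555696), the T-box factor tbx18 (ENSDARG00000036930, chromosome 23, 31107685 to 31118371), and the zinc finger paralogs wt1a (ENSDARG00000031420, chromosome 25, 15178225 to 15214161) and wt1b (ENSDARG00000007990, chromosome 18, 45594085 to 45617146), duplicates of the Wilms tumour gene. The second group encodes the junctional adhesion molecule jam2b (ENSDARG00000079071, chromosome 9, 34996245 to 35010396), the carboxypeptidase inhibitor latexin, lxn (ENSDARG00000043102, chromosome 15, 1179876 to 1198886), and the precursor of the vasodilator peptide adrenomedullin, adma (ENSDARG00000015263, chromosome 7, 66874770 to 66877058). Coordinates are as the table prints them. The build is unsettled: the submitters' notes name GRCz10, while the largest coordinate in the table, 78048911 on chromosome 4, appears to belong to a later one. Of the members, wt1b and lxn each overlap a gene on the opposite strand, wt1b with kifc3 over 665 bases and lxn with gfm1 over 15137 bases. The library kit was stranded, but the sources used here do not say whether reads were counted by strand. If they were counted without strand, reads from the overlapping stretches cannot be told apart.

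The normalised counts of a library summed to between 16310160 and 21468746. The ccn2a transcript (ctgfa in the table) was still detected in the mutants, with normalised counts of 3070 and 1473 against wild-type counts of 4737 and 4411, and its log2 fold change of -1.10 (SE 0.355) missed the threshold (limma, adjusted p = 0.381). Transcripts of the mitochondrial genome made up 13.4% to 14.7% of the values in 3 libraries and 7.66% in wild-type replicate 2. Of 16730 genes tested over the whole table, 0 (0%) passed an adjusted p of 0.05 with limma (smallest adjusted p = 0.207), while 2145 had an unadjusted p under 0.05. An exact permutation test of genotype over 4 libraries cannot give a p below 0.333. Of the 7 epicardial members, 7 were kept by the filter on low values and 0 passed, so differences between genotypes are given below as values with their intervals.

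For the epicardial transcription factors, the 95% intervals of the difference between mutant and wild-type ventricles all spanned 0. The normalised count of tcf21, which marks resident epicardial cells and their descendants, was 723 (replicate 1) and 481 (replicate 2) in the mutants, against 653 and 530 for the wild types, in the same order. Both wild types lay between the mutants. The mean ± SD was 602 ± 171 in the mutant and 592 ± 87.0 in wild type (n = 2 each), and the log2 fold change was 0.0035, with a 95% confidence interval from -0.66 to 0.66 (limma, adjusted p = 0.997).

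For tbx18, which marks epicardium and the mural cells derived from it, the mutants were at 774 and 756 and the wild types at 917 and 888. This was the member with the closest replicates, and the genotypes did not overlap. The mean was 765 ± 12.7 in the mutant against 903 ± 20.5 in wild type, 1.18-fold lower. The log2 fold change of -0.24 (95% interval -0.69 to 0.21) missed the threshold (limma, adjusted p = 0.538). The lower end of the interval stops short of a fall of 2-fold, or -1.0 on the log2 scale.

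The Wilms tumour paralogs overlapped between the genotypes. For wt1a the mutants were at 172 and 106 and the wild types at 133 and 162. For wt1b, the paralog whose reporter lines are used to follow activated epicardium, they were at 564 and 336 against 411 and 741. In both genes the highest and the next library came from different genotypes, and the gap within a genotype was wider than that between the means: mutant replicate 1 exceeded mutant replicate 2 by 1.62-fold for wt1a and 1.68-fold for wt1b, and wild-type replicate 2 exceeded wild-type replicate 1 by 1.22-fold for wt1a and by more than the mutant gap for wt1b. The log2 fold changes were -0.12 (95% interval -0.95 to 0.71) for wt1a and -0.34 (95% interval -1.27 to 0.59) for wt1b, with adjusted p of 0.881 and 0.664 (limma). The gene kifc3, whose end overlaps that of wt1b, ranked the 4 libraries in the same order, with 1024 and 664 in the mutants versus 935 and 1092.

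The other markers, jam2b, lxn and adma, lay higher in both mutants than in both wild types, although none passed the adjusted threshold. The adhesion molecule jam2b, which sits at cell contacts, had normalised counts of 332 and 256 in the mutants and of 176 and 111 in the wild types. Both mutants lay above both wild types, with means of 294 ± 53.7 and 144 ± 46.0 (n = 2 each), a ratio of 2.05. The log2 fold change was 1.06 (95% interval 0.27 to 1.84; limma, unadjusted p = 0.0170, adjusted p = 0.381).

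For lxn, whose mammalian counterpart blocks tissue carboxypeptidases, the mutants were at 1426 and 888 and the wild types at 691 and 577. The groups did not overlap, although the mutants differed from each other by 1.61-fold and mutant replicate 2 exceeded wild-type replicate 1 by less than that. Means were 1157 ± 380 and 634 ± 80.6. The log2 fold change of 0.83 (95% interval 0.15 to 1.52; limma, unadjusted p = 0.0247, adjusted p = 0.381) was 0.49 when mutant replicate 1 was left out. The overlapping gene gfm1 went the other way, at 662 and 861 in mutants versus 869 and 946.

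The adrenomedullin gene adma had normalised counts of 1254 and 788 in mutants and of 669 and 417 in wild types. Again both mutants lay above both wild types, and mutant replicate 1 exceeded mutant replicate 2 by 1.59-fold. Means were 1021 ± 330 and 543 ± 178. The log2 fold change was 0.91 (95% interval 0.10 to 1.72; limma, unadjusted p = 0.0338, adjusted p = 0.381), and it was 0.58 with mutant replicate 1 left out and 0.57 with wild-type replicate 2 left out.

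**Figure D1:**
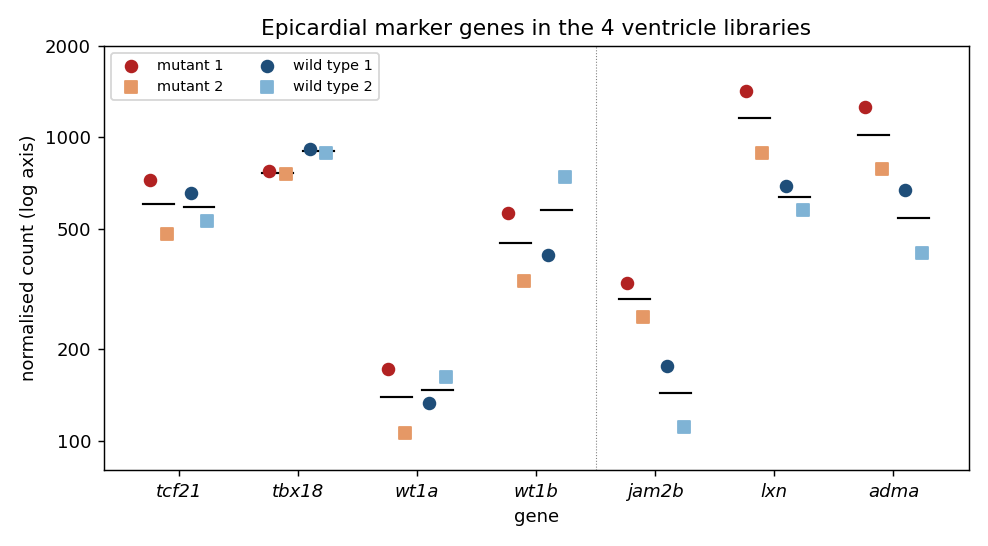
Normalised count (log axis) of the 7 epicardial marker genes in each of the 4 libraries, with bars at the mean of each genotype; the dotted line separates transcription factors from the other markers. For jam2b, lxn and adma both mutant libraries sit above both wild types, for tbx18 both sit below, and for tcf21, wt1a and wt1b the genotypes overlap.

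As a group, the markers can be divided by the kind of protein they encode, a division described here after the values were seen. Of the 4 transcription factors, 0 lay higher in both mutants, 1 lay lower in both and 3 overlapped, with a median log2 fold change of -0.18. Of the 3 other markers, 3 lay higher in both mutants, with a median of 0.91. Groups that did not overlap were common over the table: 26.6% of the genes tested were higher in both mutants and 25.7% were lower in both. The members were chosen with earlier results of these data known, so their share against that of all genes is no independent comparison. An unadjusted p under 0.05 (limma) with the mutant higher was found at 3 of 7 members and at 5.89% of all genes. With all 4 libraries kept, that count of members was 1 with voom or without a trend, and 2 with equal totals. It is not a lower bound over the fits with 1 library left out. Those leave 1 library in a group, so fold changes alone are given here for them. Over the whole table, 2145 genes had an unadjusted p under 0.05 in either direction in the fit reported here (limma). There were 2805 with voom, 1882 without a trend and 2388 with equal totals. With mutant replicate 1 left out, the log2 fold changes of jam2b, lxn and adma were 0.87, 0.49 and 0.58. With wild-type replicate 2 left out they were 0.72, 0.70 and 0.57. The median over the 7 members was 0.0035, beside a median of 6.28e-05 over all genes tested.

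**Figure D2:**
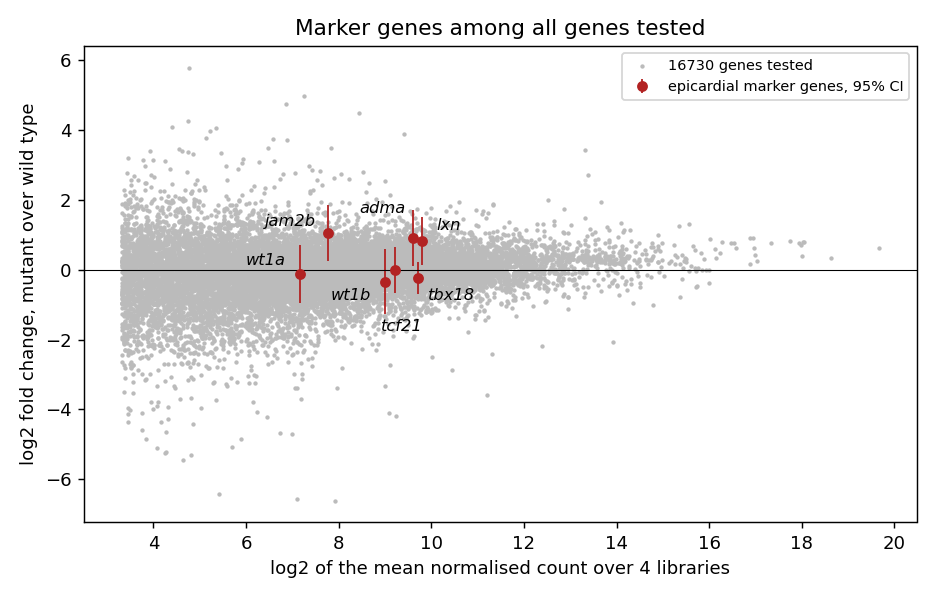
Log2 fold change of mutant over wild type against the log2 of the mean normalised count, for the 16730 genes tested (grey) and the 7 epicardial marker genes (red, with 95% confidence intervals from limma). The intervals of jam2b, lxn and adma lie above 0 before adjustment for the number of genes, and those of tcf21, tbx18, wt1a and wt1b span 0.

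The lowest approximate read count behind a member was 100, for wt1a in mutant replicate 2, where the exact Poisson 95% interval of the normalised count ran from 86.0 to 129. Between the nearest libraries of each genotype, mutant replicate 2 and wild-type replicate 1, the jam2b intervals ran from 225 to 290 and from 151 to 205. For lxn the intervals of 829 to 950 in mutant replicate 2 and 639 to 746 in wild-type replicate 1 were also apart, and for adma those of 732 to 846 and 618 to 723. The nearest libraries for tbx18, lower in both mutants, were mutant replicate 1 and wild-type replicate 2. Their intervals, 716 to 834 and 838 to 940, were apart too. Intervals within a genotype were apart as well. In mutant replicate 1 they ran from 295 to 372 for jam2b and from 1348 to 1507 for lxn, above those of mutant replicate 2. For adma wild-type replicate 2 was at 383 to 453, below wild-type replicate 1. Intervals of tbx18 overlapped within each genotype. Reads carry no molecular identifiers, so these intervals cover counting error only, and standing apart does not by itself mark a genotype.

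Within a library, the ratio of a marker to tcf21 does not depend on the scaling between libraries. Transcript lengths were not used, so only the difference of a ratio between libraries is read, and the choice of tcf21 as the divisor was made after its values were seen. Divided by tcf21, lxn was at 1.97 and 1.85 in mutants versus 1.06 and 1.09 in wild type, or 1.91 ± 0.0892 against 1.07 ± 0.0216 (n = 2 each). For lxn, the replicates of each genotype were closer on this scale than in the normalised counts, where the mutants had differed by 1.61-fold.

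The adma ratio was at 1.73 and 1.64 against 1.02 and 0.787, and the jam2b ratio at 0.459 and 0.532 against 0.270 and 0.209. The genotypes did not overlap at 3 of the 6 members compared with tcf21, and the 3 were jam2b, lxn and adma, where the ratio was higher in both mutants. Over all genes tested, 21.8% had a ratio to tcf21 that was higher in both mutants. The ratios of tbx18, wt1a and wt1b overlapped. With tbx18 as the divisor the mutant means of jam2b, lxn and adma were 2.42, 2.15 and 2.22 times those of wild type, again without overlap. Since tbx18 itself was lower in both mutants, such ratios were common, and 44.9% of all genes had a ratio to tbx18 that was higher in both mutants.

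**Figure D3:**
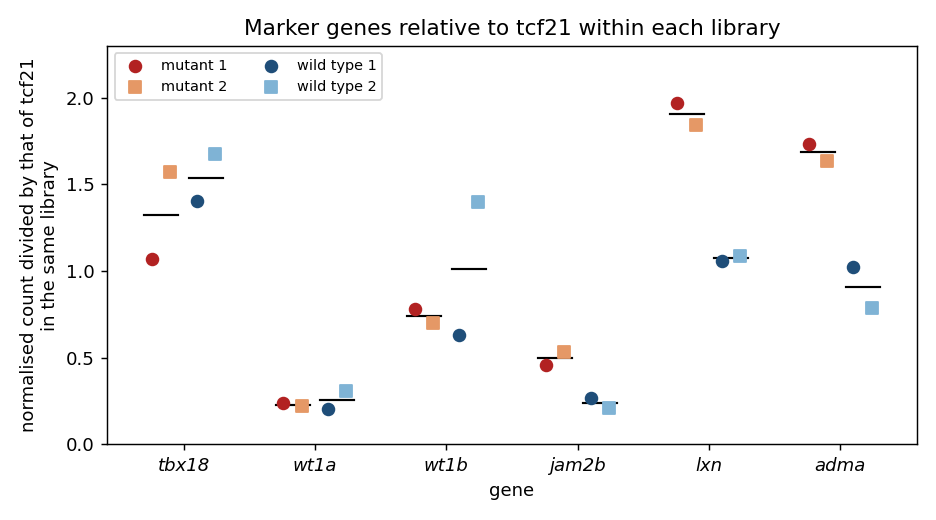
Normalised count of each marker divided by that of tcf21 in the same library, for the 4 libraries, with bars at the mean of each genotype. The mutant libraries are at 1.97 and 1.85 for lxn against 1.06 and 1.09 in wild type, and the genotypes also stand apart for jam2b and adma but not for tbx18, wt1a and wt1b.

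The ratio of wt1b to wt1a was 3.28, 3.17 and 3.09 in mutant replicates 1 and 2 and wild-type replicate 1, and 4.57 in the remaining library, the second wild type. The ratio of lxn to adma was 1.14 and 1.13 in the mutants and 1.03 and 1.38 in wild type. In both, wild-type replicate 2 stood highest.

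In a bulk ventricle, fewer cells of a type and less RNA per cell cannot be told apart, and these markers are not exclusive to epicardium. Markers of other cell types also differed between the libraries. Over all genes tested, 26.6% were higher in both mutants and 25.7% lower in both. Of 11 endothelial and endocardial markers, 10 were higher in both mutants, with summed normalised counts of 27876 and 28017 in mutants versus 21512 and 19243 in wild type, and 0 of the 11 were at 0 in a library. Of 7 ventricular cardiomyocyte genes 4 were higher in both mutants and 1 was lower in both, with sums of 879811 and 698950 against 592885 and 432797. The lower 1 was a further entry of actc1a, at 151 and 101 against 5136 and 159. The largest values in the sum were those of myl7, at 362054 and 305628 against 257710 and 139544. Of 8 erythrocyte genes 8 were higher in both mutants, with sums of 260054 and 229257 against 159056 and 122545.

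Read against the endothelial sum of the same library, lxn was at 51.2 and 31.7 per 1000 in the mutants and at 32.1 and 30.0 in wild type, and adma at 45.0 and 28.1 against 31.1 and 21.7. On that scale the genotypes overlapped for both genes. The jam2b values, 11.9 and 9.14 per 1000 against 8.18 and 5.77, did not overlap. Their nearest libraries were mutant replicate 2 and wild-type replicate 1, at 9.14 and 8.18. Counting error was not worked out on this scale or on the cardiomyocyte scale below, so it may exceed such a gap. Of the transcription factors, 3 were lower in both mutants on the endothelial scale, tcf21 at 25.9 and 17.2 against 30.4 and 27.5, tbx18 at 27.8 and 27.0 against 42.6 and 46.1, and wt1a at 6.17 and 3.78 against 6.18 and 8.42, while wt1b overlapped. Over all genes tested, 5.59% were higher and 58.4% lower in both mutants on that scale. Against the cardiomyocyte sum, too, lxn and adma overlapped and jam2b did not, at 0.377 and 0.366 against 0.297 and 0.256 per 1000. There all 4 transcription factors, tcf21, tbx18, wt1a and wt1b, were lower in both mutants, with tcf21 at 0.755 ± 0.0945 against 1.16 ± 0.0871 per 1000 (SD, n = 2 each), where 4.28% of all genes were higher and 65.2% lower in both mutants. The part of these cell types in the results was not tested.

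Fibroblasts and mural cells descend in part from epicardium. Of 13 fibroblast markers 0 were higher in both mutants and 3 were lower in both, with a median log2 fold change of -0.03 and sums of 427944 and 234184 against 289096 and 381974. Among them the collagen-associated gene cthrc1a was at 221 and 145 against 409 and 510, and the microfibril gene mfap5 at 946 and 802 against 1324 and 1104. The largest values in the fibroblast sum included those of the collagen I gene col1a1b, at 90973 and 37056 against 46262 and 74525. Those of fn1b, at 55713 and 58080 against 70544 and 77835, were also among them. Divided by the fibroblast sum, jam2b, lxn and adma were higher in both mutants, as were 13% of all genes tested, and the 4 transcription factors overlapped. On the cardiomyocyte scale all 4 had been lower in both mutants. On the endothelial scale wt1b had overlapped too, and wt1a had been lower only by 6.17 against 6.18 in the nearest libraries. Of 12 mural and smooth muscle markers 3 were higher in both mutants and 4 lower in both. For the fibroblast and mural lists alike, the shares over all genes tested were 26.6% higher and 25.7% lower. Among the mural genes, rgs5a, which encodes a regulator of G-protein signalling in pericytes, was at 1166 and 1684 against 956 and 480. Its paralog rgs5b went the other way, at 133 and 210 against 276 and 307. Also lower in both mutants were cnn1b, at 329 and 612 against 671 and 1294, and the pericyte proteoglycan cspg4, at 41 and 95 against 142 and 236.

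Other tissues that express members of the group were looked at through their own markers. The kidney expresses wt1a, wt1b and tcf21 in podocytes, and the podocyte gene nphs1 was at 3 and 4 in mutants versus 7 and 8, while the other kidney genes, cdh17 and slc20a1a, stood at 13 and 10 versus 6 and 17 and at 861 and 1148 versus 585 and 392. Of the 3 bulbus arteriosus markers, whose median log2 fold change was 0.43, the elastin gene elnb was at 376 and 317 against 944 and 494, lower in both mutants, the myosin kinase gene mylka was at 1495 and 784 against 726 and 741, higher in both, and the matrix gene fbln5 overlapped, at 686 and 382 against 408 and 351. Of 9 macrophage markers 0 were higher and 7 were lower in both mutants, beside 26.6% and 25.7% of all genes tested. The macrophage sums were 16879 and 18399 versus 21937 and 24138, and the part of macrophages in the results was not tested. The 3 atrial markers overlapped between genotypes but differed between replicates. In mutants versus wild types, myh6 was at 4585 and 4293 versus 5854 and 3276, and nppa at 55122 and 103223 versus 96319 and 36181. The third, nr2f1a, was at 267 and 223 versus 285 and 176.

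**Figure D4:**
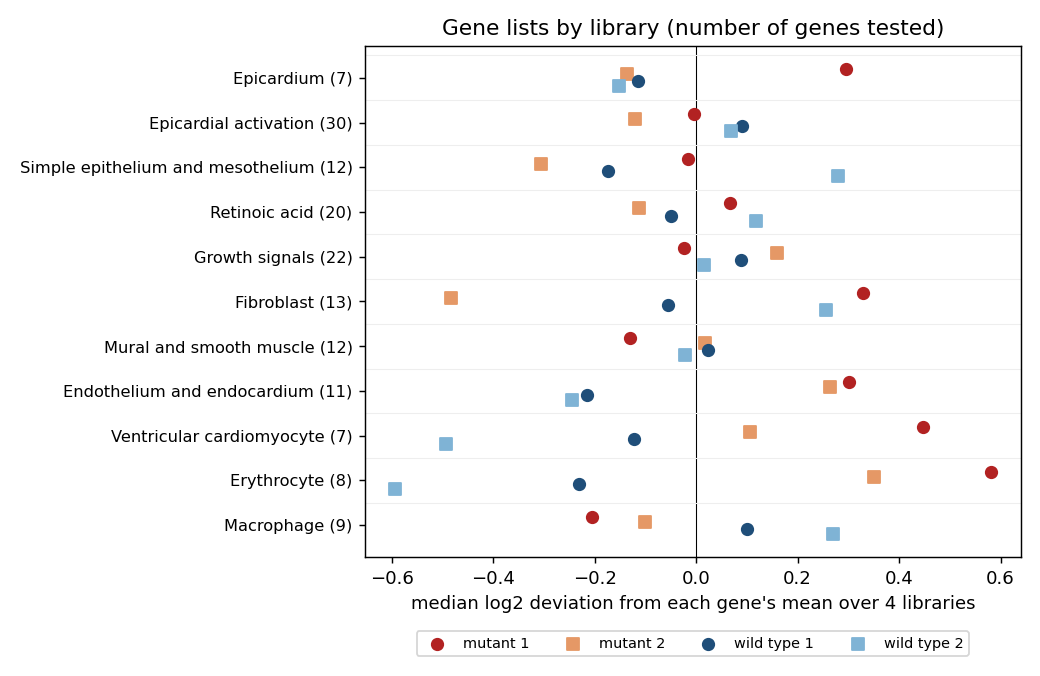
Median over each gene list of the log2 deviation from a gene's mean over the 4 libraries, 1 point per library; the number of genes tested is given in brackets. The median of the 7 epicardial markers was highest in mutant replicate 1, at 0.30 against -0.14, -0.12 and -0.15. That of the 4 transcription factors alone (not drawn) was 0.24 and -0.35 in the mutants and 0.03 and 0.15 in wild type. The endothelial, erythrocyte and cardiomyocyte lists lie higher in both mutants, and the macrophage and epicardial activation lists lie lower in both.

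Mutant replicate 1 carried the highest values of tcf21, wt1a, jam2b, lxn and adma among the 4 libraries. Summed over the 7 members it held 5245, against 3611 in mutant replicate 2 and 3650 and 3426 in wild-type replicates 1 and 2. For the 4 transcription factors alone the sums were 2233 and 1679 against 2114 and 2321, highest in wild-type replicate 2. For the 3 other markers they were 3012 and 1932 against 1536 and 1105. Mutant replicate 1 and wild-type replicate 2 also differed by the genomic span of genes. In the fifth of genes with the shortest span, up to 6.53 kb, which holds tcf21 and adma, the median log2 fold change was 0.12, and it was -0.11 in the fifth with the longest. The fifth that holds jam2b and lxn had a median of -0.0047. With each library centred within each such class of span, the log2 fold changes were 1.06 for jam2b, 0.84 for lxn, 0.80 for adma and -0.11 for tcf21.

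The lineage factors tcf21 and tbx18 lie on the same chromosome with 436 kb and 9 genes of the table between them. Of the 8 tested, 3 were higher and 1 was lower in both mutants, with log2 fold changes from -1.87 to 0.52. Over all genes tested the shares were 26.6% higher and 25.7% lower. The markers themselves differed in order, since tbx18 was lower in both mutants and tcf21 was not.

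The profile of tcf21 over the 4 libraries was nearest to that of rgma, which encodes a repulsive guidance molecule, at 205 and 136 in mutants versus 188 and 153, followed by snapc2 and prss12. The measure was the Euclidean distance between log2 values centred on each gene's mean over 4 libraries, and it was 0.0260, 0.0340 and 0.0384. The nearest other member was wt1a, at 0.437, with 1998 genes nearer. For wt1b the nearest were zgc:165515 and azi2, at 0.0968 and 0.0994, and another gene known by a clone name, at 0.130.

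The paralog wt1a lay at a distance of 0.459 from wt1b, with 349 genes or 2.68% nearer, and adma and jam2b lay far from it, at 1.66 and 1.78. The gene kifc3, which overlaps wt1b, lay slightly nearer to wt1b than wt1a did, at 0.453, with 327 genes or 2.51% nearer. Keratin and collagen I genes, chosen after their values were seen, differed in how near they lay to wt1b. Its distance was 0.375 to krt18, 0.408 to krt8 and 0.471 to col1a2, with 1.31%, 1.71% and 2.98% of genes nearer. It was 0.520 to col1a1b, 0.589 to col1a1a and 0.737 to krt94, with 4.26%, 7.26% and 18.5% nearer. The simple-epithelium keratin krt8 was at 83083 and 48587 in mutants versus 53425 and 76417, high in mutant replicate 1 and wild-type replicate 2 as wt1b was. With 4 libraries such likeness describes these libraries only.

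Genes of the activated epicardium and of cells derived from it were counted in the same way. Of 30 tested, 5 were higher in both mutants, 12 lower in both and 13 overlapped, and 0 passed the threshold (5 had an unadjusted p under 0.05), with a median log2 fold change of -0.15. Here and for the lists that follow, the shares over all genes tested were 26.6% higher and 25.7% lower in both mutants. An unadjusted p under 0.05 in either direction (limma) was found at 2145 of 16730 genes tested. The fibronectin gene fn1a, a matrix protein that activated epicardium deposits, was at 18468 and 18406 in mutants versus 29145 and 46681. The collagen XII gene col12a1b was at 3624 and 4016 against 5697 and 9105, and the transglutaminase gene tgm2b, which crosslinks matrix, at 7440 and 4539 against 9692 and 10167. The integrin subunit itga4, part of a receptor for fibronectin and VCAM1, was at 22 and 55 against 92 and 199. Other genes of the list, picked after their values were seen, lay the other way: the GATA factor gene gata5 was at 5547 and 3530 against 2855 and 2663, and hand2, which encodes a basic helix-loop-helix factor, at 6012 and 3883 against 3402 and 2768. The retinoic acid synthase aldh1a2, a general sign of activated epicardium and endocardium, was at 6780 and 6608 against 6901 and 7670, and was also picked after its values were seen.

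The simple epithelium and mesothelium list had 12 genes tested, of which 2 were higher in both mutants, 4 lower in both and 6 overlapped (median -0.17). The tight junction gene cldn11a was at 166 and 184 in mutants versus 107 and 66, and the keratin genes krt4 and krt5 at 4770 and 6624 against 7721 and 10791, and at 348 and 166 against 331 and 1042. The epithelial adhesion gene epcam was low in every library, at 8 and 6 against 21 and 42.

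Around adma, the genes of the adrenomedullin system differed in direction. The paralog admb, which encodes another adrenomedullin, was at 522 and 254 in mutants versus 184 and 205, higher in both. The receptor genes calcrla and calcrlb, encoding the calcitonin receptor-like subunit, were at 11 and 13 against 18 and 32, and at 33 and 116 against 143 and 169, lower in both mutants. The receptor-modifying gene ramp2, picked after its values were seen, was at 2767 and 3273 against 3506 and 2809, with overlap. Of the 5 genes other than adma that were tested, 0 passed the threshold, 0 had an unadjusted p under 0.05, and the median was -0.68.

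Around jam2b, 7 junctional genes were tested, with 2 higher in both mutants, 1 lower in both and a median of -0.05. The paralog jam2a was at 277 and 331 in mutants versus 205 and 166, and the related gene f11r.1, encoding junctional adhesion molecule A, at 700 and 1074 against 675 and 259. In wild-type replicate 2, f11r.1 was below 0.5 times its value in each other library. The partners tjp1b, a zonula occludens scaffold, and jam3a overlapped, at 1065 and 902 against 1048 and 1735 and at 612 and 773 against 1070 and 607. Both jam2 paralogs lay higher in both mutants, with log2 fold changes of 1.06 for jam2b and 0.71 for jam2a (limma, adjusted p = 0.381 for each).

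Retinoic acid genes, whose signal the epicardium sends to the myocardium, gave 4 higher in both mutants and 7 lower in both among 20 tested, with a median of -0.15. The binding protein gene crabp2b was at 444 and 446 against 1130 and 754, and crabp1a at 25 and 18 against 6 and 9. The retinol importer gene stra6 was at 3 and 7 against 11 and 120, a difference carried by wild-type replicate 2, and the receptor gene rxrbb at 855 and 654 against 601 and 349. Growth signals exchanged by epicardium and its neighbours gave 5 higher and 2 lower in both mutants among 22 tested (median -0.02). The lymphangiogenic ligand gene vegfc was at 273 and 245 against 147 and 166, the platelet-derived growth factor gene pdgfbb at 722 and 685 against 537 and 427, bmp4 at 87 and 60 against 50 and 27, and the TGF-beta co-receptor gene tgfbr3 at 6 and 32 against 90 and 66. In neither list did a gene pass the threshold (0 of 20 and 0 of 22 with limma; 1 and 3 had an unadjusted p under 0.05).

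**Figure D5:**
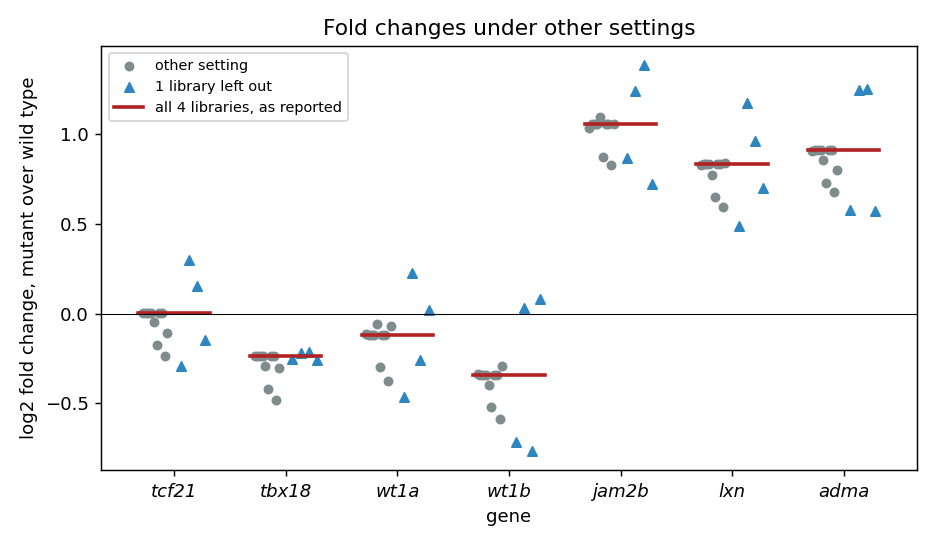
Log2 fold change of mutant over wild type for each marker as reported (red line), with 1 library left out (blue triangles) and under 10 other settings of scaling, filter, pseudocount and fit (grey). The values of jam2b, lxn and adma stay above 0 and those of tbx18 below 0 in all 14 alternatives, and those of tcf21, wt1a and wt1b fall on both sides of 0.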

How the data were processed

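Messenger RNA of dissected zebrafish ventricles was sequenced in 4 libraries, 2 per genotype, from total RNA with a stranded poly(A) library kit, per the labels' protocols. STAR 2.4.0a, featureCounts 1.4.5-p1 (Subread), DESeq2 1.6.2 and the build GRCz10 (danRer10) come from the submitters' processing notes, which give no settings as used here. The deposited values are scores: whole numbers that behave as read counts divided by a size factor for each library and then rounded by the authors. How often each whole number occurred gave these factors, 0.874 and 0.946 in the mutants (replicates 1, 2) and 0.952 and 1.32 in the wild types. Values multiplied by them gave approximate reads, 18763684 and 18103263 in the mutants and 17192402 and 21529411 in the wild types. No value column was left unused.

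Values were read in Python 3.11.15 with pandas 2.3.3 and numpy 2.4.6. Genotypes were compared in R 4.3.3 with limma 3.58.1 (limma-trend) on log2(value + 1) in a model with genotype alone, without a block. The filter kept genes whose mean over the libraries was at least 10, 16730 of 19875, and 2-sided p-values were adjusted over them by Benjamini and Hochberg's method, with calls at 0.05. Each gene had 2 residual degrees of freedom, to which limma added 4.01. The fit and the size factors were tested on simulated data. The 7 members, the lists beside them and the tests were chosen with earlier results of these data known. Of 215 places in the lists, 193 matched a gene by symbol or by a current symbol of its Ensembl ID. At most the 4 genes with the smallest unadjusted p are named in a list. For tcf21 and wt1b the 3 nearest profiles among genes with a mean of 50 or more were taken. Genes named outside these rules were chosen after their values were seen. Alternatives were the pseudocount, the filter on low values, other scalings, no trend, the replicate number as a block and each library left out. A fit with voom on approximate reads and a centring by genomic span were added after the data were seen. Figures were drawn with matplotlib 3.10.9.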

Additional observations from a re-analysis of the deposited data

How the results depend on the processing

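With 2 libraries per genotype, the results rest on single libraries. Over the 14 alternatives the log2 fold change ran from 0.72 to 1.39 for jam2b, from 0.49 to 1.17 for lxn, from 0.57 to 1.25 for adma and from -0.48 to -0.21 for tbx18, with adjusted p (limma) from 0.240 to 0.868 over those 4 genes, and 0 of 7 members passed under any of them. The direction reversed for 3 genes. For tcf21 it was -0.046 under quantile normalisation, -0.18 with equal totals without mitochondrial-genome transcripts, -0.24 with voom and -0.11 when centred within classes of genomic span, and it ran from -0.29 to 0.30 with 1 library left out. With 1 library left out, wt1a ran from -0.47 to 0.23 and wt1b from -0.77 to 0.083, and both were positive when either mutant replicate 2 or wild-type replicate 2 was left out. The median of the members was -0.24 with voom and ran from -0.26 to 0.30 with 1 library left out. Equal totals and voom moved the median of all genes to -0.18 and -0.24, and the share of genes higher in the mutant to 36.7% and 32.6%. Relative to those medians, tcf21 was at 0.0016 and 0.0061. Without a trend 2 genes of the whole table passed, none of them a member. With the replicate block, 0 members passed and jam2b had an adjusted p of 0.246, and no call changed. Deviations of same-numbered libraries were uncorrelated across genes (r = 0.00406). The labels do not say whether the numbers pair libraries, and a correlation over all genes cannot exclude that they do.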

Other observations

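Several genes of the lists set beside the epicardial markers were low in mutant replicate 1 alone. In that library tgfb2 was at 116, against 662, 776 and 810 in mutant replicate 2 and wild-type replicates 1 and 2, tbx20 at 135 against 437, 458 and 454, and nrp1b at 72 against 185, 177 and 191. The genes cspg4, itga4 and calcrlb, given above as lower in both mutants, were also below 0.5 times each other library there. Over the table, 4.50% of genes with a mean of 50 or more lay below 0.5 times the value of each other library in mutant replicate 1, and 3.06% did so in wild-type replicate 2. In mutant replicate 2 and wild-type replicate 1 the shares were 0.253% and 0.0922%. The genes low in mutant replicate 1 had a median genomic span of 36.0 kb, those low in wild-type replicate 2 one of 10.8 kb, and all such genes one of 17.6 kb. None of the 7 epicardial markers was among them.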
